A study of Mus musculus with 24 samples.

Results

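The 10 genes described here encode the liver's main carriers of bile salts and sterols: Abcb11, Abcc2, Abcb4, Abcc3, Abcc4, Slc10a1, Slco1b2, Slco1a1, Abcg5 and Abcg8. They were chosen by name, and each was found at 1 locus of its own among the 31027 loci of the deposited FPKM table (fragments scaled by transcript length and by the library's mapped fragments). Of these loci, 10562 had a mean of at least 1 FPKM and were tested. Abcc4, with a mean of 0.491 FPKM, was not among them, so 9 of the 10 transporters were tested. No library was at 0 for any of the 10.

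Livers of C57BL/6J mice were measured after 16 weeks on a high fat or a chow diet, with 3 libraries in each of 8 groups. The Jnk1Jnk2 groups were AlbCre+ with Jnk1flox/flox and Jnk2flox/flox alleles. The Jnk1 groups were AlbCre+ with Jnk1flox/flox, and the Jnk2 groups AlbCre+ with Jnk2flox/flox. The Control groups were AlbCre+ with no floxed allele named, so all 8 groups carried the Cre transgene. The albumin promoter drives Cre in hepatocytes. Which other cells of the liver keep the targeted genes was not tested. Age was not given in the labels. The labels do not say that the 3 libraries of a group came from separate mice, so the spread between them may be technical.

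Bile forms when hepatocytes pump solutes across the canalicular membrane, and water follows. Bile salts return from the gut in portal blood, are taken up at the sinusoidal membrane by Na+-dependent and organic anion carriers, and are pumped out again by ABC transporters. Loss of ABCB11 or ABCB4 function causes inherited cholestasis in humans, and the nuclear receptors FXR, LXR and PXR are known regulators of several of these genes.

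The promoter windows of 4 genes that the results turn on are printed here from RefSeq (GRCm38.p6), 250 bases before to 50 after the annotated start, 5′ to 3′ on the gene's strand. Of the 10 genes, 9 had such a window. Abcb11 (chr2:69342567-69342866, minus strand) and Slco1b2 (chr6:141629268-141629567, plus strand) are shown because both hold an inverted repeat of nuclear receptor recognition sites spaced by 1 base, AGGNCANTGACCT, in capitals. Abcc2 (chr19:43782058-43782357, plus strand) is shown with the single recognition site AGGTCA in capitals. Abcg8 (chr17:84682871-84683170, plus strand) shares 209 bases with the window of Abcg5 on the other strand, and its capitals mark the letters AGATAA, or their reverse complement, which zinc finger factors of the GATA family are known to bind. Abcg8 had 2 annotated windows, and the one printed lies inside its measured locus, which starts at 84676302.
Abcb11: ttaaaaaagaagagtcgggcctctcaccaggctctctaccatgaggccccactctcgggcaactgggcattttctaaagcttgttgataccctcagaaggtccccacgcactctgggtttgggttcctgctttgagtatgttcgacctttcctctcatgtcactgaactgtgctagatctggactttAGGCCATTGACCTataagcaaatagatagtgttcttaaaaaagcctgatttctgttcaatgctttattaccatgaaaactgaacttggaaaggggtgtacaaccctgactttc
Slco1b2: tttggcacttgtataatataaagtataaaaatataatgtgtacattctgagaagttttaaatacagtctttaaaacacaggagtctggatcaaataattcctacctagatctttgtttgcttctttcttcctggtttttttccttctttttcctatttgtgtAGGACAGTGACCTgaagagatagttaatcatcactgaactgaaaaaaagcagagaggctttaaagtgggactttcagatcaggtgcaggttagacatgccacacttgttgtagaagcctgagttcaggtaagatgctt
Abcc2: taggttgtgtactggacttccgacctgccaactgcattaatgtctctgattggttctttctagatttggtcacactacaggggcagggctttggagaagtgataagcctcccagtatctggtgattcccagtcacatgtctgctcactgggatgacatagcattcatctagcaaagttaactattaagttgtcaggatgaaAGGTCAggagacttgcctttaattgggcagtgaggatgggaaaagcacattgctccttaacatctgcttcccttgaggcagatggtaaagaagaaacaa
Abcg8: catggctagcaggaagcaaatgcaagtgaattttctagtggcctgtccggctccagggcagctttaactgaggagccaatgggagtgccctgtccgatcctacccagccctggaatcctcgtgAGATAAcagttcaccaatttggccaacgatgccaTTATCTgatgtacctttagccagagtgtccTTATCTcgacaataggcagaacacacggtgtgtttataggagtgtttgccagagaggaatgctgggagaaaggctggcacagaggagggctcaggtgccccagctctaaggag

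Motifs were searched on both strands in 32851 promoter windows of the same length, and their letters were chosen after the windows were seen. The inverted repeat was in 12 windows (0.0365%), among them those of Abcb11, as AGGCCATTGACCT starting 63 bases before the start, and Slco1b2, as AGGACAGTGACCT starting 88 bases before it. The single recognition site AGGTCA, which overlaps the inverted repeat in Abcb11 and Slco1b2, was in 5340 windows (16.3%), and among the transporters in those of Abcb11, Abcc2 (49 bases before the start), Slco1a1 and Slco1b2. AGATAA was in 3672 windows (11.2%), among them those of Abcg5 and Abcg8, where the matches lie in the stretch both genes share. A match is a description of letters and was not tested as a binding site.

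Libraries summed to between 634849 and 873399 FPKM. Read from the smallest steps between low values, their depth was 0.3 to 1 times that of the deepest one. The absolute depth is unknown. Mapk8 was at 0.845 to 2.47 FPKM in the 12 libraries labelled as lacking JNK1 and 3.38 to 5.77 in the other 12. Mapk9 was at 4.33 to 7.79 FPKM in the libraries labelled as lacking JNK2 and 9.01 to 12.0 in the others. In the 3 high fat Jnk1Jnk2 libraries FPKM fell with transcript length relative to the mean library (Spearman rho across loci -0.66 to -0.6), against -0.25 to 0.42 in the other 21. The main changes that involve that group are therefore given both as deposited and with each library's length trend removed. The highest correlation of high fat Jnk2 replicate 3 with its own group was 0.952, the lowest such value of the 24 libraries. The closest of 3 closer libraries of other groups was of the other diet, chow Control replicate 2 (0.963). Closer libraries of other groups were not particular to it, with 7 for chow Jnk1 replicate 2 and 5 for chow Control replicate 2. Changes of the transporters that involve the high fat Jnk2 group are given with and without its replicate 3 where they passed the test or where that library decides the value. Of the hepatocyte markers looked for, 9 loci had usable values and summed to 17249 to 29057 FPKM in every high fat library. The cholangiocyte markers summed to 19.4 to 65.8 FPKM over all 24 libraries. In whole liver, fewer cells of a type and less RNA per cell cannot be told apart.

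**Figure D1:**
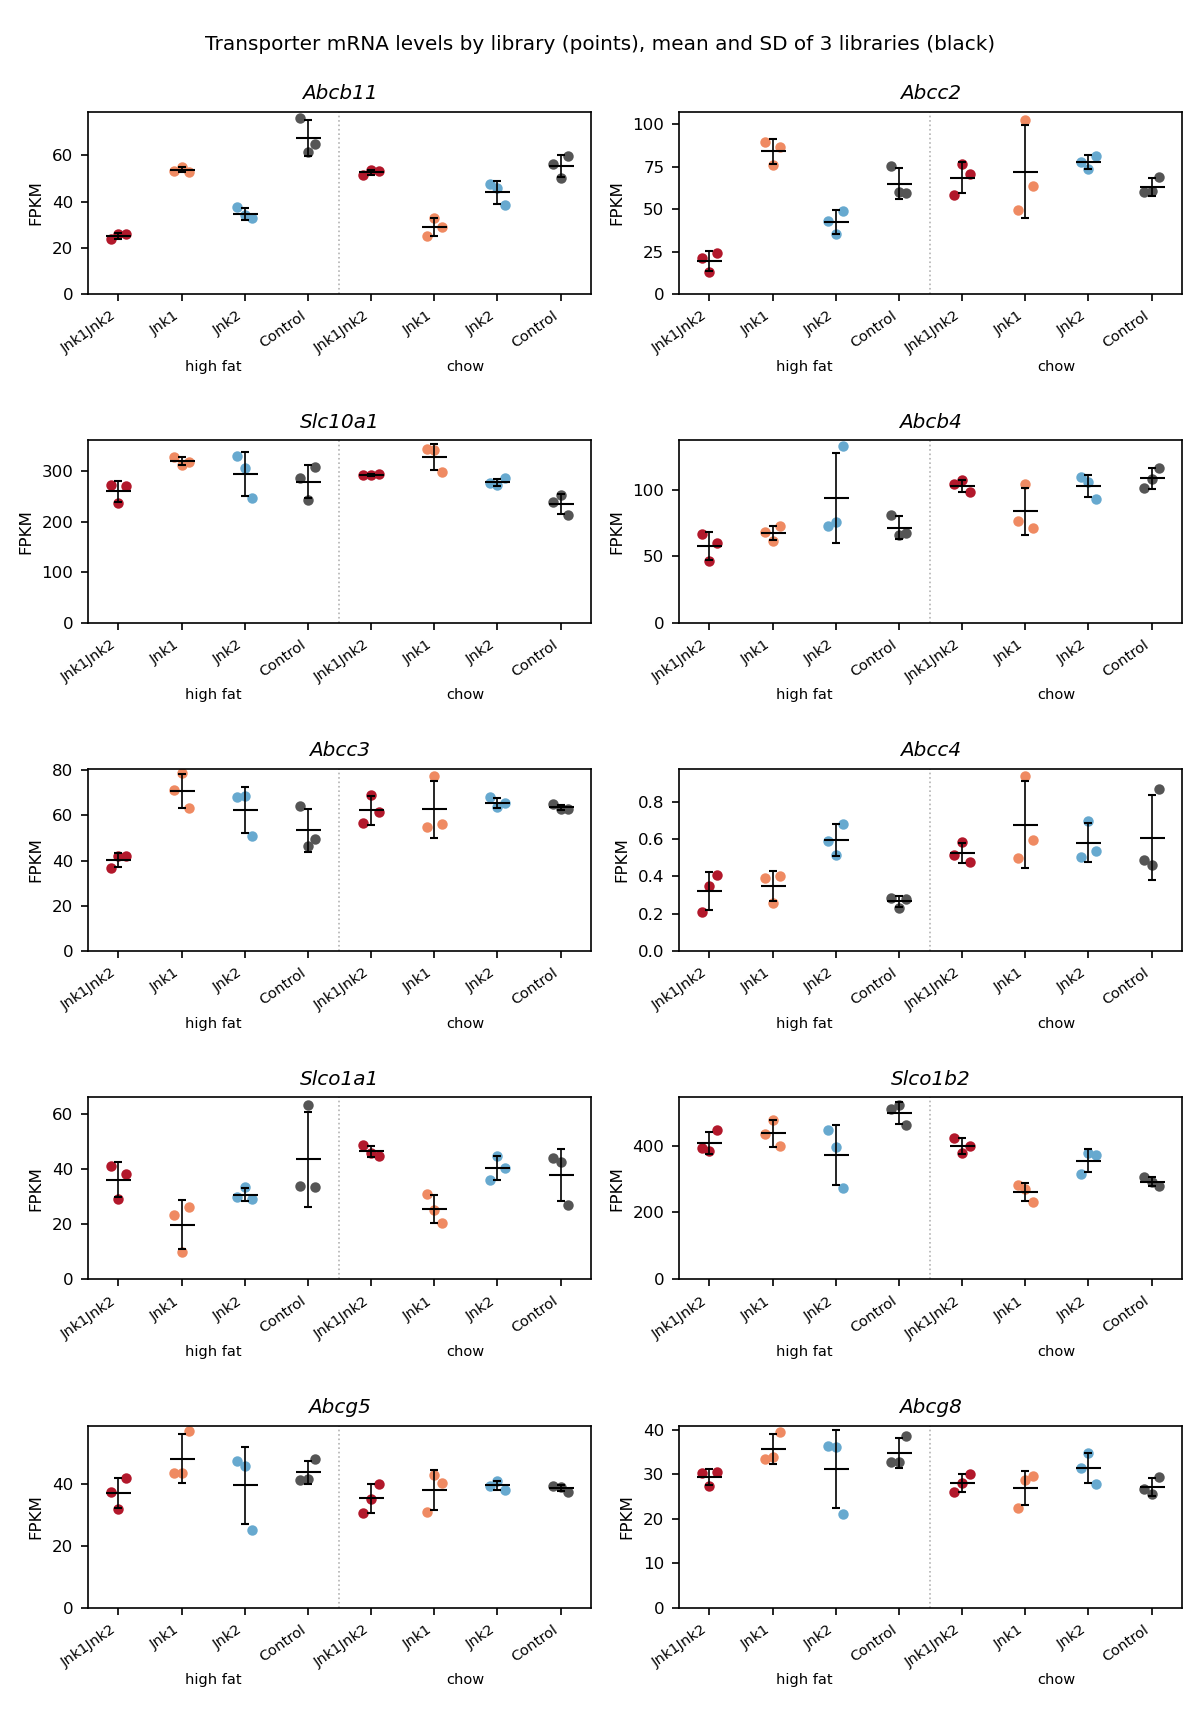
Levels of the 10 transporters in FPKM (y axis, from 0) in each library (points) of the 8 groups, with the mean and SD of 3 libraries in black. High fat groups are left of the dotted line and chow groups right of it. Abcb11 and Abcc2 are lowest in high fat Jnk1Jnk2 livers, at 25.1 and 19.5 FPKM, while Abcg5 and Abcg8 stay within a narrow range of group means.

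Levels per length ordered the transporters. The uptake carriers were the most abundant, with a median over 24 libraries of 389.5 FPKM for Slco1b2 and 288.8 for Slc10a1. The canalicular pumps followed, with 78.9 FPKM for Abcb4, 62.2 for Abcc2 and 48.9 for Abcb11. The basolateral exporter Abcc3 had 63.2 FPKM and the other, Abcc4, 0.493. The sterol exporters had 40.3 (Abcg5) and 30.2 FPKM (Abcg8), and Slco1a1 33.8. Group means differed most for Abcc2, whose highest mean was 4.31 times its lowest, and for Abcb11, at 2.69 times. They differed least for Abcg8 (1.32 times), Abcg5 (1.36 times) and Slc10a1 (1.4 times).

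Abcb11 encodes the bile salt export pump, which moves bile salts into the canaliculus (chr2:69238282-69342616, mm10, counted from 1). On high fat it had 23.6, 25.8 and 25.8 FPKM in Jnk1Jnk2 livers, 53.4, 54.8 and 52.8 in Jnk1 livers and 37.7, 34.0 and 32.8 in Jnk2 livers, against 76.1, 61.2 and 64.8 in Control livers. The 4 high fat groups did not overlap. On chow it had 51.4, 53.5 and 53.0 FPKM in Jnk1Jnk2 livers, 25.2, 32.8 and 29.0 in Jnk1 livers and 47.6, 46.0 and 38.3 in Jnk2 livers, against 56.3, 50.1 and 59.6 in Control livers. On chow the Jnk1 group was thus the low one, and the Jnk1Jnk2 libraries lay inside the range of Control. Ordered by mean, high fat Control came first, above all other groups. Chow Control, high fat Jnk1 and chow Jnk1Jnk2 came next and overlapped one with the next. Chow Jnk2 and high fat Jnk2 followed without overlap, and high fat Jnk2, chow Jnk1 and high fat Jnk1Jnk2 overlapped one with the next at the low end.

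On high fat, Abcb11 in Jnk1Jnk2 livers was at 0.372 times the Control mean, a log2 change of FPKM + 1 of -1.39 ± 0.1 (SE; limma adjusted p = 3.98e-08). With the length trend removed the change was -0.99 ± 0.1 (adjusted p = 1.42e-06), since the trend gives -0.39 to a transcript of its length, 5025 bases. In Jnk2 livers Abcb11 fell to 0.517 times the Control mean (-0.93 ± 0.1, adjusted p = 1.41e-05), and by 0.89 without replicate 3 (adjusted p = 0.000129). In high fat Jnk1 livers the change was -0.32 ± 0.1, which did not pass the test (adjusted p = 0.208), although the groups did not overlap; with array weights, which give libraries with more scatter less weight, it was -0.42 and passed (adjusted p = 0.00538). The change in Jnk1Jnk2 livers was not distinguishable from the sum of both single changes (difference -0.14 ± 0.15, adjusted p = 0.466; 0.28 ± 0.14 with the trend removed, adjusted p = 0.166). On chow Abcb11 fell in Jnk1 livers to 0.524 times the Control mean (-0.91 ± 0.1, adjusted p = 5.03e-05). It had -0.07 ± 0.1 in chow Jnk1Jnk2 livers (adjusted p = 0.842) and -0.33 ± 0.1 in chow Jnk2 livers (adjusted p = 0.163). The chow Jnk1Jnk2 change was 1.17 ± 0.15 above the sum of the single changes (adjusted p = 0.000389).

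Clock genes, looked at after their values were known, also differed between chow Jnk1 and chow Control livers. Dbp, a transcription factor gene with strong daily rhythm in liver, had 56.1, 36.4 and 30.2 FPKM in chow Jnk1 livers, against 12.3, 7.82 and 8.59 in chow Control livers (1.96 ± 0.33, adjusted p = 0.00359). Arntl, the gene of the clock activator BMAL1, had 0.758, 0.944 and 0.924 FPKM in chow Jnk1 livers, against 4.79, 3.28 and 4.35 in chow Control livers (-1.44 ± 0.28, adjusted p = 0.00828). Chow Jnk2 livers also stood apart from chow Control in both genes without overlap, with 23.5, 26.6 and 20.5 FPKM of Dbp (1.23 ± 0.33, adjusted p = 0.111) and 2.16, 0.924 and 0.824 of Arntl (-1.19 ± 0.28, adjusted p = 0.0659). Neither passed the test. Chow Jnk1Jnk2 livers had 2.45, 2.3 and 1.57 FPKM of Arntl, also without overlap with chow Control (-0.73 ± 0.28, adjusted p = 0.292). Their Dbp, at 9.63, 12.4 and 23.8 FPKM, overlapped chow Control (0.55 ± 0.33, adjusted p = 0.517). The part of the clock genes in the Abcb11 difference was not tested. High fat Jnk1 livers had 44.5 ± 3.36 FPKM of Dbp (SD, n = 3), against 32.1 ± 10.0 in high fat Control livers (0.5 ± 0.33, adjusted p = 0.594). Their Abcb11 was at 53.7 ± 1.02 FPKM, against 67.4 ± 7.81 in high fat Control livers. Their Arntl was at 0.49 ± 0.147 FPKM, against 1.48 ± 0.871 (-0.69 ± 0.28, adjusted p = 0.327). High fat Jnk2 replicate 3 had 21.8 FPKM of Dbp, against 57.9 and 60.5 in the other libraries of its group.

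Abcc2 encodes MRP2, the canalicular pump of bilirubin glucuronides and other conjugates (chr19:43782308-43838218). On high fat it had 21.1, 13.0 and 24.4 FPKM in Jnk1Jnk2 livers, 89.9, 75.9 and 86.6 in Jnk1 livers and 43.1, 35.2 and 49.1 in Jnk2 livers, against 75.4, 60.2 and 59.6 in Control livers. On chow it had 58.5, 76.9 and 70.8 FPKM in Jnk1Jnk2 livers, 49.7, 102.9 and 63.8 in Jnk1 livers and 78.0, 73.8 and 81.6 in Jnk2 livers, against 59.9, 60.6 and 69.2 in Control livers. High fat Jnk1Jnk2 and high fat Jnk2 were the 2 lowest groups and overlapped neither each other nor any other group, while the other 6 groups overlapped along the order. Its high value of 102.9 FPKM was in chow Jnk1 replicate 2, which also had the group's highest Abcb4 and Abcc3. That library had a length correlation of 0.39, against 0.00 and -0.02 in the other chow Jnk1 libraries, and the part of that difference in these values was not tested.

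On high fat, Abcc2 in Jnk1Jnk2 livers fell to 0.3 times the Control mean, by 1.72 ± 0.22 on the log2 scale (adjusted p = 5.13e-06). Its transcript, at 8027 bases longer than those of 95.3% of tested loci, has a trend of -0.59. With the trend removed the change was -1.14 ± 0.18 (adjusted p = 9.48e-05). It was below the sum of the single changes by 1.48 ± 0.31 as deposited (adjusted p = 0.00152) and by 1.0 ± 0.25 with the trend removed (adjusted p = 0.0101). In high fat Jnk2 livers it had -0.61 ± 0.22 (adjusted p = 0.0692), and -0.72 without replicate 3 (adjusted p = 0.0607). With array weights the Jnk2 change was -0.78 ± 0.17 and passed (adjusted p = 0.00288). In high fat Jnk1 livers it had 0.37 ± 0.22 (adjusted p = 0.528). On chow no knockout changed it by the test, with 0.11 to 0.3 on the log2 scale and adjusted p of 0.592 or more.

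Abcb4 encodes the canalicular phospholipid floppase that puts phosphatidylcholine into bile (chr5:8893721-8959226). On high fat it had 66.9, 46.4 and 60.4 FPKM in Jnk1Jnk2 livers, 68.5, 61.7 and 72.7 in Jnk1 livers and 73.2, 76.1 and 133.3 in Jnk2 livers, against 81.4, 65.8 and 67.9 in Control livers. Each high fat knockout group overlapped Control. On chow its 12 libraries ranged from 71.1 to 117.0 FPKM. Without array weights no knockout changed it by the test on either diet. In high fat Jnk1Jnk2 livers it had -0.31 ± 0.18 (adjusted p = 0.162), and -0.04 ± 0.17 with the trend removed (adjusted p = 0.894). With array weights that change was -0.44 ± 0.16 and passed (adjusted p = 0.0243). The high value in high fat Jnk2 livers was that of replicate 3, and the change there of 0.34 ± 0.18 (adjusted p = 0.245) was 0.06 without it (adjusted p = 0.834). Abcb4 has a close paralogue, Abcb1a, so reads of shared sequence could have been split between them.

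At the basolateral side, Abcc3 encodes MRP3, which exports conjugates to blood (chr11:94343295-94392976). After high fat feeding it had 36.7, 42.2 and 42.2 FPKM in Jnk1Jnk2 livers, 71.0, 78.5 and 63.3 in Jnk1 livers and 68.3, 68.5 and 50.7 in Jnk2 livers, against 64.0, 46.4 and 49.6 in Control livers. The Jnk1Jnk2 libraries lay below all the others. As deposited Abcc3 fell in Jnk1Jnk2 livers by 0.38 ± 0.14 (adjusted p = 0.0298). The length trend gives -0.39 to its transcript of 5005 bases, and with the trend removed the change was 0.01 ± 0.15 (adjusted p = 0.976). The call was also lost with size factors (-0.27, adjusted p = 0.12), without Control replicate 1 (-0.25, adjusted p = 0.182) and without Jnk1Jnk2 replicate 1 (-0.32, adjusted p = 0.103). Relative to the sum of the single changes it was lower by 1.02 ± 0.2 as deposited (adjusted p = 0.00107) and by 0.6 ± 0.21 with the trend removed (adjusted p = 0.0468). The second value lost its call with length and GC trends both removed (-0.56, adjusted p = 0.0605), and with the length trend removed and Jnk1Jnk2 replicate 1 (-0.55, adjusted p = 0.0917) or replicate 3 (-0.58, adjusted p = 0.0802) left out. Abcb11, with nearly the same transcript length as Abcc3, kept a change of -0.99 in the same comparison.

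Abcc4 encodes MRP4, a basolateral exporter that is induced in cholestasis (chr14:118482692-118706219). It stayed under 1 FPKM in every library, at 0.207, 0.348 and 0.409 FPKM in high fat Jnk1Jnk2 livers, against 0.286, 0.233 and 0.281 in high fat Control livers. High fat Jnk1 livers had 0.257 to 0.401 FPKM and high fat Jnk2 livers 0.516 to 0.683, and the 12 chow libraries 0.464 to 0.942. The chow groups and high fat Jnk2 overlapped along the order and stood above the other 3 high fat groups. With no filter on low values, Abcc4 passed the test as higher in high fat Jnk2 than in high fat Control livers (0.33 ± 0.1, adjusted p = 0.046; Jnk2 replicates 1 and 2 were at 0.59 and 0.516 FPKM) and as lower in high fat than in chow Control livers (-0.33 ± 0.1, adjusted p = 0.0385).

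**Figure D2:**
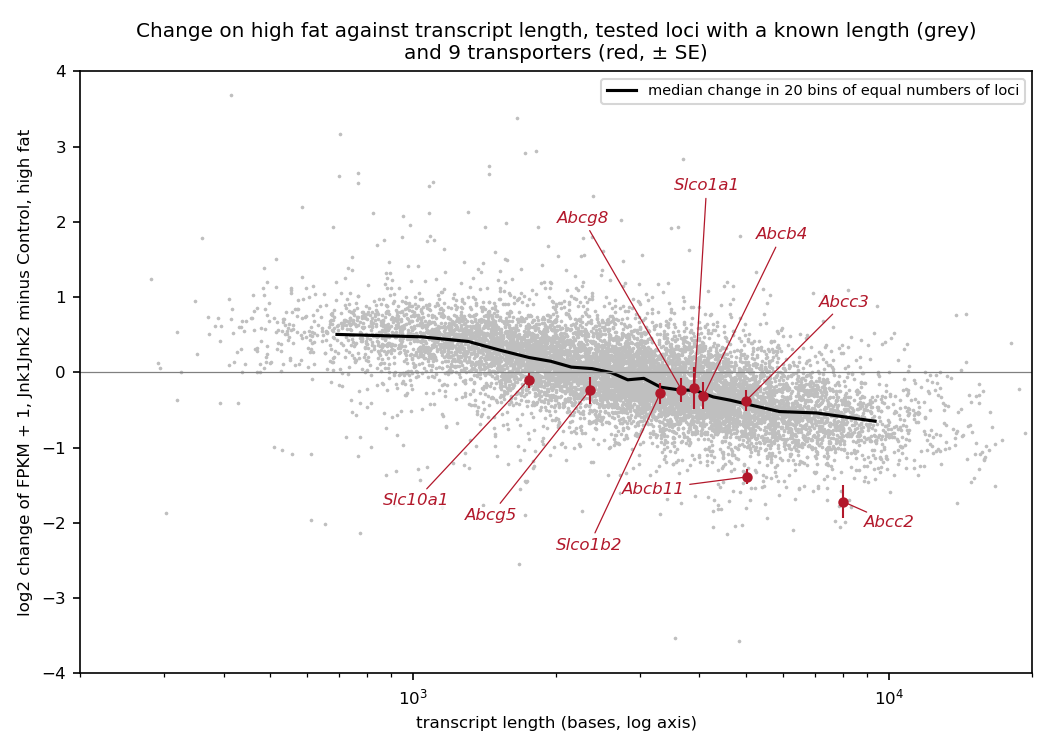
Log2 change of FPKM + 1 between high fat Jnk1Jnk2 and high fat Control livers (y axis) against transcript length in bases (x axis, log scale) for 10193 tested loci with a known length, of which 71 lie outside the axes. The black line joins medians of 20 bins, and red points with SE bars are the 9 tested transporters. Abcc3, Abcb4, Abcg8 and Slco1a1 lie near the line, and Abcb11 and Abcc2 lie below it, at -1.39 and -1.72.

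Slc10a1 encodes NTCP, the Na+-dependent bile salt uptake carrier (chr12:80953185-80968705). After high fat feeding it had 273.4, 236.7 and 270.7 FPKM in Jnk1Jnk2 livers, 328.3, 312.0 and 318.9 in Jnk1 livers and 330.9, 307.0 and 246.9 in Jnk2 livers, against 285.6, 243.2 and 308.7 in Control livers. On chow it had 291.5, 291.7 and 293.8 FPKM in Jnk1Jnk2 livers, 343.6, 342.9 and 298.8 in Jnk1 livers and 275.6, 272.0 and 286.1 in Jnk2 livers, against 239.8, 251.8 and 212.8 in Control livers. On chow all 9 knockout libraries lay above the 3 Control libraries. The test passed for chow Jnk1 (0.48 ± 0.11, adjusted p = 0.0217), and was lost without chow Control replicate 1 or 3 or chow Jnk1 replicate 1 or 2 (adjusted p up to 0.111). It did not pass for chow Jnk1Jnk2 (0.32 ± 0.11, adjusted p = 0.259) or chow Jnk2 (0.25 ± 0.11, adjusted p = 0.337). On high fat the Jnk1Jnk2 change was -0.1 ± 0.11 as deposited (adjusted p = 0.472). Its transcript of 1749 bases is short, with a trend of 0.21, and with the trend removed the change was -0.3 ± 0.11 and passed (adjusted p = 0.0348). That call was lost with length and GC trends both removed (-0.26, adjusted p = 0.0686), and with the length trend removed and Jnk1Jnk2 replicate 2 (-0.21, adjusted p = 0.18) or replicate 3 (-0.29, adjusted p = 0.08) left out. Removing the length trend therefore exchanged Abcc3 for Slc10a1 among the called transporters.

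Slco1b2 encodes the hepatic organic anion carrier OATP1B2, the most abundant of the 10 (chr6:141629518-141686635). After high fat feeding it had 393.9, 385.0 and 446.1 FPKM in Jnk1Jnk2 livers, 435.8, 475.8 and 397.5 in Jnk1 livers and 446.5, 395.8 and 272.8 in Jnk2 livers, against 509.6, 522.0 and 460.2 in Control livers. On chow it had 423.1, 377.2 and 397.6 FPKM in Jnk1Jnk2 livers, 282.2, 269.4 and 232.3 in Jnk1 livers and 316.4, 377.5 and 371.3 in Jnk2 livers, against 305.7, 290.3 and 279.7 in Control livers. Control was thus the highest of the high fat groups and the second lowest by mean of the chow groups. In high fat Jnk2 livers Slco1b2 fell by 0.45 ± 0.14 (adjusted p = 0.0391), a call lost without Jnk2 replicate 3, where the change was -0.24 (adjusted p = 0.179), and without Control replicate 1 or 2 (adjusted p = 0.103 and 0.119). In high fat Jnk1Jnk2 livers it had -0.28 ± 0.14 (adjusted p = 0.0903), and -0.13 with the trend removed (adjusted p = 0.507). That change passed with quantile normalization (-0.57, adjusted p = 0.00181) and with array weights (-0.31, adjusted p = 0.0351). In chow Jnk1Jnk2 livers it had 0.45 ± 0.14, which did not pass (adjusted p = 0.22) although the groups did not overlap.

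Slco1a1 encodes OATP1A1, another sinusoidal organic anion carrier (chr6:141907281-141946962). After high fat feeding it had 41.2, 29.3 and 38.4 FPKM in Jnk1Jnk2 livers, 23.3, 9.86 and 26.4 in Jnk1 livers and 30.0, 33.5 and 29.1 in Jnk2 livers, against 33.8, 63.6 and 33.7 in Control livers. On chow Jnk1 livers had 30.9, 25.1 and 20.6 FPKM, against 44.1, 42.7 and 26.9 in Control livers. Jnk1 was the lowest group on both diets, and on chow it overlapped Control. The changes, -1.14 ± 0.28 on high fat (adjusted p = 0.0819) and -0.54 ± 0.28 on chow (adjusted p = 0.41), did not pass; with array weights the high fat change was -0.79 and passed (adjusted p = 0.0384). On high fat the Jnk1Jnk2 change was 1.36 ± 0.4 above the sum of the single changes (adjusted p = 0.0127), and 1.68 ± 0.41 with the trend removed (adjusted p = 0.00875). As deposited it was 0.94 to 1.61 with each library left out (adjusted p up to 0.0478). The call was lost with only the groups compared in the fit. Slco1a1 has close paralogues beside it, such as Slco1a4, so reads of shared sequence could have been split.

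Abcg5 (chr17:84658234-84682923) and Abcg8 (chr17:84676302-84700333) encode the partners of the canalicular sterol exporter, which works as a heterodimer, and are known LXR targets. On high fat Abcg5 had 37.5, 32.2 and 42.0 FPKM in Jnk1Jnk2 livers, 43.8, 43.6 and 57.5 in Jnk1 livers and 47.6, 46.0 and 25.3 in Jnk2 livers, against 41.6, 41.9 and 48.2 in Control livers. Abcg8 had 30.3, 27.4 and 30.6 FPKM in Jnk1Jnk2 livers, 33.5, 33.8 and 39.5 in Jnk1 livers and 36.3, 36.2 and 21.0 in Jnk2 livers, against 32.8, 32.7 and 38.6 in Control livers. On chow the 12 libraries had 30.8 to 43.2 FPKM of Abcg5 and 22.4 to 34.7 of Abcg8. Without array weights neither gene passed the test in any of the 15 comparisons made. With them Abcg8 passed as higher on high fat than on chow in Control (0.32 ± 0.11, adjusted p = 0.0336) and Jnk1 livers (0.35 ± 0.12, adjusted p = 0.0438). The lowest value of each gene was in high fat Jnk2 replicate 3. The ratio of Abcg5 to Abcg8 stayed between 1.17 and 1.53 in all 24 libraries, with a median of 1.28. The loci overlap by 6622 bases and share 82 exon bases in GENCODE vM21, and whether the counting used strand was not given in the sources used here, so a small part of their reads cannot be told apart.

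**Figure D3:**
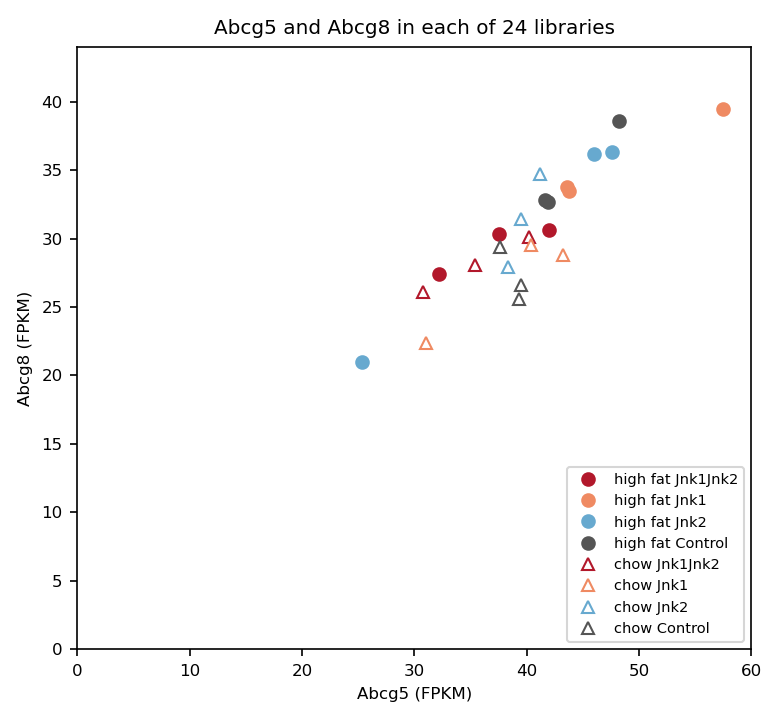
Abcg8 (y axis) against Abcg5 (x axis), both in FPKM, in each of 24 libraries, coloured by genotype, with filled circles for high fat and open triangles for chow. The lowest point, at 25.3 and 21.0 FPKM, is high fat Jnk2 replicate 3.

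Across the 9 tested transporters, high fat Jnk1Jnk2 livers had 0 higher, 3 lower and 6 not called against high fat Control livers, where 51.2% of all tested loci were called and 31.6% were lower. The 3 are 33.3% of the 9, which is near the background. The median change of the 9 was -0.28, against -0.07 over all loci. With the length trend removed 3 were called, all lower, where 33.5% of loci were called and 16.7% were lower. In high fat Jnk2 livers 2 of 9 were called, both lower, where 12.4% of loci were called and 4.96% were lower, and without replicate 3 the count was 1. In high fat Jnk1 livers limma called 0 of 9, against 0.227% of loci, and array weights called 2, against 6.78% of loci. On chow, limma called 2 of 9 in Jnk1 livers, 1 higher and 1 lower, where 2.2% of loci were called, 0.985% higher and 1.21% lower. It called 0 of 9 in both Jnk2 livers (0.454% of loci) and Jnk1Jnk2 livers (0.161% of loci). At an unadjusted p under 0.05, 1253 loci passed for high fat Jnk1, 1390 for chow Jnk2 and 1334 for chow Jnk1Jnk2. These comparisons share their Control libraries within a diet.

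**Figure D4:**
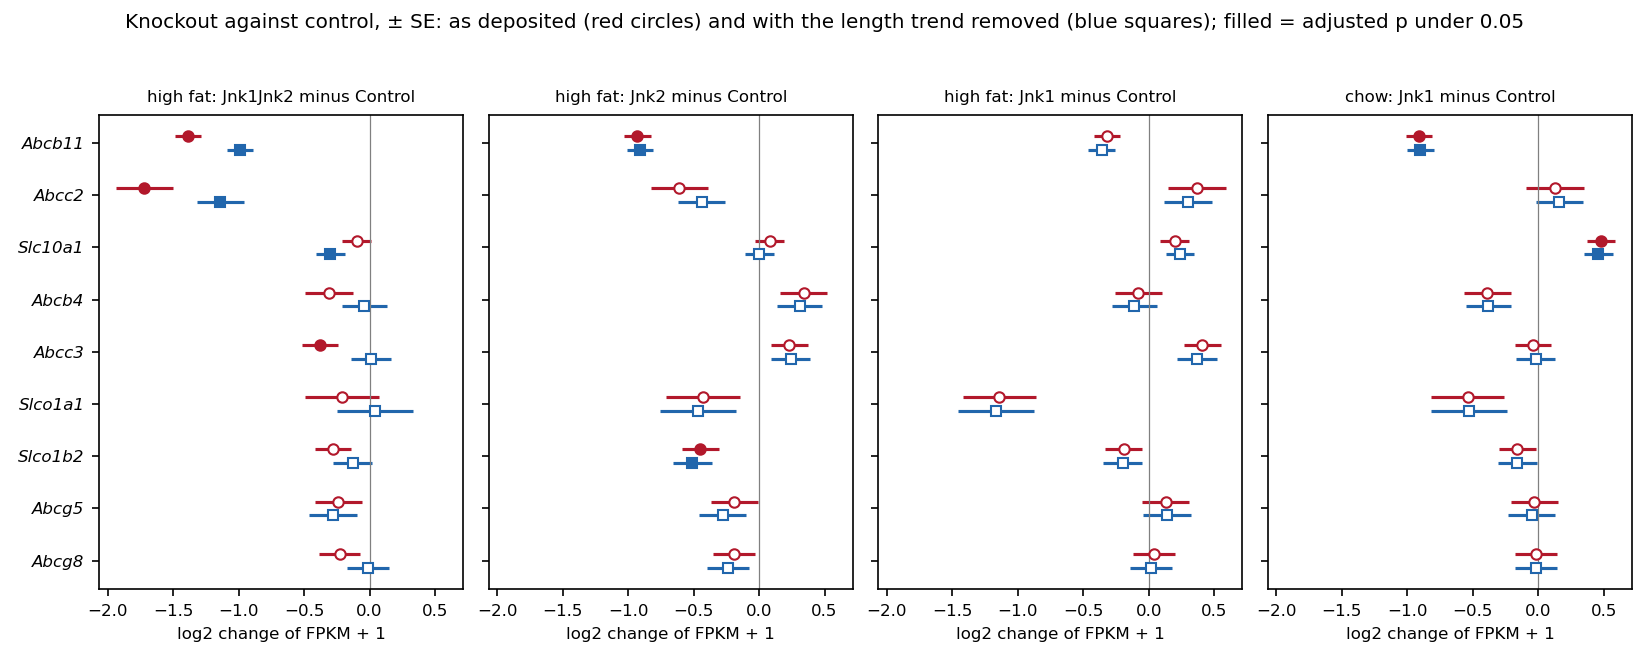
Log2 change of FPKM + 1 ± SE of the 9 tested transporters in 4 comparisons, as deposited (red circles) and with the length trend removed (blue squares), filled where the adjusted p was under 0.05. In high fat Jnk1Jnk2 livers Abcb11 and Abcc2 were called both ways, Abcc3 as deposited and Slc10a1 with the trend removed.

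Diet changed some transporters in each genotype, and the direction of Abcb11 depended on the genotype. Between high fat and chow, Abcb11 fell by 1.04 ± 0.1 in Jnk1Jnk2 livers (adjusted p = 7.73e-07), or by 0.75 ± 0.1 with the trend removed (adjusted p = 1.45e-05), and by 0.32 ± 0.1 in Jnk2 livers (adjusted p = 0.027). It rose by 0.87 ± 0.1 in Jnk1 livers (adjusted p = 2.33e-05), and in Control livers had 0.28 ± 0.1 (adjusted p = 0.075). The Jnk2 call was lost without high fat Jnk2 replicate 3 (-0.28, adjusted p = 0.0732), without replicate 2 of that group, and without chow Jnk2 replicate 1 or 2 (adjusted p up to 0.109). Against the diet change of Control livers, that of Jnk1Jnk2 livers was lower by 1.32 ± 0.15 (adjusted p = 2.1e-05), or by 0.99 ± 0.14 with the trend removed (adjusted p = 0.000233). That of Jnk2 livers was lower by 0.6 ± 0.15 (adjusted p = 0.0165), and by 0.56 without high fat Jnk2 replicate 3 (adjusted p = 0.0325). Fitted with only the groups compared it was -0.6 and did not pass (adjusted p = 0.0538). For Jnk1 livers the difference was 0.6 ± 0.15 and did not pass (adjusted p = 0.563). In that comparison limma called 0 of all 10562 loci, array weights also 0, and 545 had an unadjusted p under 0.05.

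Slco1b2 rose with high fat feeding in Jnk1 livers to 1.67 times its chow mean (0.74 ± 0.14, adjusted p = 0.00128) and in Control livers to 1.7 times (0.77 ± 0.14, adjusted p = 0.000992). In Jnk1Jnk2 livers it had 0.03 ± 0.14 (adjusted p = 0.866) and in Jnk2 livers 0.04 ± 0.14 (adjusted p = 0.865), the second 0.25 without high fat Jnk2 replicate 3 (adjusted p = 0.106). The diet change was lower than that of Control by 0.73 ± 0.19 in Jnk1Jnk2 livers (adjusted p = 0.00714), or by 0.66 ± 0.21 with the trend removed (adjusted p = 0.0289). The call was lost with length and GC trends both removed (-0.48, adjusted p = 0.0809), and with the length trend removed and Jnk1Jnk2 replicate 2 left out (-0.64, adjusted p = 0.0641). The diet change was also lower than that of Control by 0.73 ± 0.19 in Jnk2 livers (adjusted p = 0.0259), and by 0.52 without high fat Jnk2 replicate 3 (adjusted p = 0.0399). The Jnk2 difference lost its call without any 1 of 6 other libraries, with adjusted p up to 0.0638. These were chow Control replicates 2 and 3, chow Jnk2 replicates 2 and 3, and high fat Control replicates 1 and 2.

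Abcc2 fell with high fat feeding in Jnk1Jnk2 livers by 1.8 ± 0.22 (adjusted p = 3.43e-06), or by 1.28 ± 0.18 with the trend removed (adjusted p = 2.44e-05). It fell in Jnk2 livers by 0.87 ± 0.22 (adjusted p = 0.00639), and by 0.98 without high fat Jnk2 replicate 3 (adjusted p = 0.00596). In Control livers it had 0.04 ± 0.22 (adjusted p = 0.941). The Jnk1Jnk2 diet change was lower than that of Control by 1.84 ± 0.31 (adjusted p = 0.000294), or by 1.29 ± 0.25 with the trend removed (adjusted p = 0.00188). For Jnk2 the difference was -0.91 ± 0.31 (adjusted p = 0.0652), and passed with size factors (-0.99, adjusted p = 0.0471), with array weights (-1.08, adjusted p = 0.00447) and with only the groups compared in the fit (-0.91, adjusted p = 0.0256). Slc10a1 had a lower diet change in Jnk1Jnk2 than in Control livers by 0.42 ± 0.15 (adjusted p = 0.041), or by 0.72 ± 0.15 with the trend removed (adjusted p = 0.00321). As deposited that call was lost without any 1 of 8 of the 12 libraries compared (adjusted p up to 0.109).

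Abcb4 fell with high fat feeding in Jnk1Jnk2 livers by 0.84 ± 0.18 (adjusted p = 0.000789), and by 0.68 ± 0.17 with the trend removed (adjusted p = 0.00338). In Control livers it fell by 0.6 ± 0.18 (adjusted p = 0.0323), a call lost without any chow Control library or high fat Control replicate 2 or 3 (adjusted p up to 0.107). It had -0.29 ± 0.18 in Jnk1 livers (adjusted p = 0.305) and -0.18 ± 0.18 in Jnk2 livers (adjusted p = 0.503), the second -0.46 without high fat Jnk2 replicate 3 (adjusted p = 0.0328). The diet change of Abcb4 was not shown to differ between Jnk1Jnk2 and Control livers (-0.24 ± 0.26, adjusted p = 0.494; -0.04 ± 0.24 with the trend removed, adjusted p = 0.933). Abcc3 fell by 0.61 ± 0.14 in Jnk1Jnk2 livers as deposited (adjusted p = 0.00123), and had -0.32 ± 0.15 with the trend removed (adjusted p = 0.0842). Its call was kept with length and GC trends both removed.

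**Figure D5:**
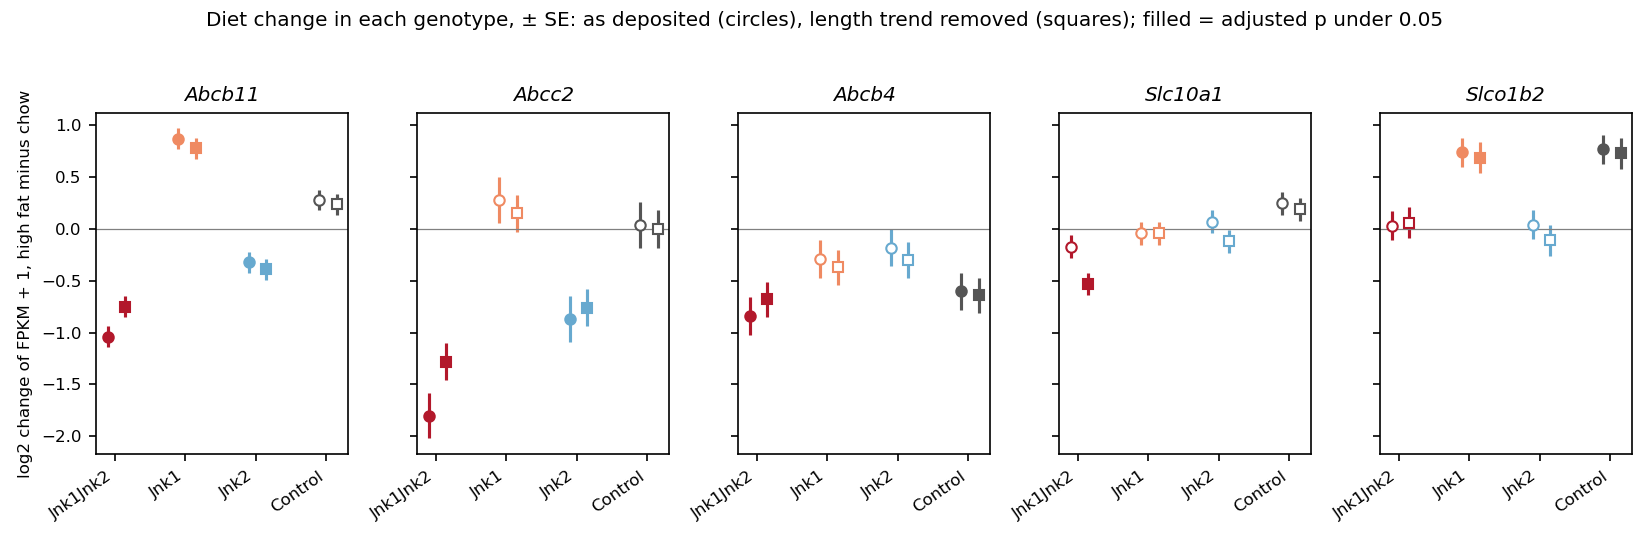
Log2 change of FPKM + 1 ± SE between high fat and chow (y axis) in the 4 genotypes for 5 transporters, as deposited (circles) and with the length trend removed (squares), filled where the adjusted p was under 0.05. Abcb11 fell in Jnk1Jnk2 and Jnk2 livers and rose in Jnk1 livers, and Slco1b2 rose in Jnk1 and Control livers.

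Between diets, 4 of 9 transporters (44.4%) were called in Jnk1Jnk2 livers, all lower, where 56.9% of all loci were called and 26.8% were lower. With the length trend removed 4 were again called, all lower, where 40.9% of loci were called and 21.5% were lower. They were not the same 4: Slc10a1 was among them (-0.53 ± 0.11, adjusted p = 0.000669; -0.17 ± 0.11 as deposited, adjusted p = 0.186) and Abcc3 was not. With length and GC trends both removed Abcc3 kept its call as lower, and Slc10a1 was called too (-0.48 ± 0.1, adjusted p = 0.00126). In Jnk1 livers 2 were called, both higher, where 15.0% of loci were called and 9.22% were higher. In Jnk2 livers 2 (22.2%) were called, both lower, where 26.0% of loci were called and 6.39% were lower. In Control livers 1 was higher and 1 lower, where 16.3% of loci were called, 10.1% higher and 6.19% lower. As deposited, the Jnk1Jnk2 and Jnk2 shares are thus below the share of loci called in either direction. The difference in diet change from Control was called for 4 transporters in Jnk1Jnk2 livers, all lower, where 34.9% of loci were called and 19.1% were lower. It was called for 2 in Jnk2 livers, both lower, where 9.52% of loci were called and 3.33% were lower, and for 0 in Jnk1 livers (0.0% of loci). Departure from the sum of the single changes was called for 1 transporter on chow, as higher, where 1.53% of loci were called and 0.701% were higher. On high fat it was called for 3, with 1 higher and 2 lower, where 37.0% of loci were called, 12.5% higher and 24.4% lower. With the length trend removed it was called for 4, with 1 higher and 3 lower, where 1911 of 10193 loci were called. The added one was Slc10a1 (-0.54 ± 0.15, adjusted p = 0.0196, against -0.37 ± 0.15 as deposited, adjusted p = 0.0612). Without high fat Jnk2 replicate 3 the 3 departures called as deposited were -1.38 for Abcc2 (adjusted p = 0.00454), -1.16 for Abcc3 (adjusted p = 0.000597) and 1.32 for Slco1a1 (adjusted p = 0.0262). Dbp was also higher in high fat than in chow Control livers (1.63 ± 0.33, adjusted p = 0.00283), and its part in the diet changes was not tested.

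Gene lists around the transporters were read in the same fits, beside the 51.2% of loci called (31.6% lower) in high fat Jnk1Jnk2 against Control livers as deposited and the 33.5% called (16.7% lower) with the trend removed. Of 20 other bile and organic anion transporter genes, 15 were tested. Against high fat Control livers, 2 were higher, 10 lower and 3 not called in high fat Jnk1Jnk2 livers, with a median of -0.55 against -0.07 over all loci, and 3 higher and 7 lower with the length trend removed. Slc10a5, an orphan relative of the bile salt uptake carriers, fell to 2.41 ± 1.11 FPKM in Jnk1Jnk2 livers, against 9.27 ± 0.0979 in Control livers (SD, n = 3; -1.65 ± 0.2, adjusted p = 4.07e-06). Atp8b1, the canalicular aminophospholipid flippase whose loss causes cholestasis in humans, fell to 1.62 ± 0.133 FPKM, against 5.16 ± 0.579 (-1.23 ± 0.1, adjusted p = 9.05e-08). Atp7b, the copper exporter, fell by 1.17 ± 0.15 (adjusted p = 4.94e-06) in Jnk1Jnk2 livers. With the trend removed these 3 Jnk1Jnk2 changes were -1.39, -0.71 and -0.67, and each passed. In high fat Jnk2 livers 0 of the 15 were higher and 5 lower, where 12.4% of loci were called and 4.96% were lower. Atp8b1 fell there by 0.66 ± 0.1 (adjusted p = 0.000278). In high fat Jnk1 livers and in the 3 chow knockout groups 0 of the 15 were called.

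Among 14 transcriptional regulators of the transporters, all tested, 1 was higher, 7 lower and 6 not called in high fat Jnk1Jnk2 against high fat Control livers, with a median of -0.3. With the length trend removed 1 was higher and 6 lower. The 8 of 14 called as deposited are near the share of all loci. Nr1h4, the gene of the bile acid receptor FXR, had 49.0, 57.2 and 62.4 FPKM in Jnk1Jnk2 livers, against 56.3, 55.6 and 62.0 in Control livers, and these overlapped (-0.05 ± 0.12, adjusted p = 0.756). Nr5a2, which encodes LRH-1, fell to 4.44 FPKM in Jnk1Jnk2 livers, against 11.9 in Control livers (-1.28, adjusted p = 3.31e-06). Ahr, the aryl hydrocarbon receptor gene, fell by 1.23 in Jnk1Jnk2 livers (adjusted p = 4.35e-07). Hnf4a fell by 0.82 (adjusted p = 0.00112) in Jnk1Jnk2 livers, and Nr1h3, which encodes LXRα, rose by 0.57 (adjusted p = 0.000133). With the trend removed each of these 4 changes passed, at -0.92 for Nr5a2, -0.79 for Ahr, -0.51 for Hnf4a (adjusted p = 0.0247) and 0.42 for Nr1h3 (adjusted p = 0.0019).

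In the bile acid synthesis list of 14 genes, 2 were higher, 6 lower and 6 not called in high fat Jnk1Jnk2 against high fat Control livers (median -0.12), and 3 higher and 6 lower with the trend removed. Here too the 8 of 14 called as deposited are near the share of all loci. Cyp7a1, the rate-limiting hydroxylase, fell to 14.3 FPKM in Jnk1Jnk2 livers, against 45.9 in Control livers (-1.66, adjusted p = 0.000511). With the trend removed its change was -1.37 (adjusted p = 0.0041). Cyp8b1, the sterol 12-alpha-hydroxylase of cholic acid synthesis, rose as deposited to 373.2 FPKM, against 163.2 (1.19, adjusted p = 0.00126). Akr1d1, the steroid 5-beta-reductase, fell by 0.94 as deposited (adjusted p = 0.0152). On chow, Hsd3b7 in Jnk1 livers was the single call (-0.54, adjusted p = 0.0453), and with the trend removed it did not pass (adjusted p = 0.0583).

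Of 9 genes of the canalicular scaffold and trafficking, 0 were higher, 4 lower and 5 not called in high fat Jnk1Jnk2 against high fat Control livers. These 4 of 9 are below the share of all loci called, and the median of -0.07 equals that of all loci. With the trend removed 2 were lower. Rdx, the gene of radixin, which anchors canalicular proteins to actin, fell to 27.3 FPKM in Jnk1Jnk2 livers, against 45.1 in Control livers (-0.72, adjusted p = 2.87e-05; -0.4 with the trend removed, adjusted p = 0.00107). Vps33b, a trafficking gene, fell by 0.54 as deposited (adjusted p = 0.00431). In the LXR and sterol list 13 of 14 genes were tested, with 2 higher, 6 lower and 5 not called (median -0.08, against -0.07 over all loci), and 3 higher and 4 lower with the trend removed. Abca1, the cholesterol exporter of HDL formation, fell by 1.37 (adjusted p = 4.35e-07), Srebf1 by 1.7 (adjusted p = 0.000151) and Npc1, a lysosomal cholesterol transporter gene, by 0.77 (adjusted p = 0.000175). With the trend removed these 3 changes were smaller and each passed, at -0.69 for Abca1, -1.39 for Srebf1 (adjusted p = 0.00193) and -0.36 for Npc1 (adjusted p = 0.0239). In the same livers Abcg5 and Abcg8, also LXR targets, had -0.24 ± 0.18 (adjusted p = 0.289) and -0.23 ± 0.16 (adjusted p = 0.229). With the trend removed Abcg5 had -0.28 ± 0.18 (adjusted p = 0.235) and Abcg8 -0.01 ± 0.16 (adjusted p = 0.958).

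Summed levels of some markers of other liver cells were higher in high fat Jnk1Jnk2 than in high fat Control livers, beside library totals of 849038 to 873399 FPKM in Jnk1Jnk2 livers, against 634849 to 696265 in Control livers. The 8 macrophage markers summed to 223.0 to 235.7 FPKM in high fat Jnk1Jnk2 livers, against 154.9 to 185.3 in high fat Control livers. The 6 endothelial markers summed to 71.4 to 83.1 FPKM, against 51.4 to 56.5, the 8 cholangiocyte markers to 37.4 to 65.8 FPKM, against 22.2 to 31.2, and the 7 stellate cell markers to 103.3 to 181.0 FPKM, against 89.8 to 118.0, where the ranges overlapped. In high fat Jnk1Jnk2 against high fat Control livers, 51.2% of all loci were called as deposited (31.6% lower). With the trend removed 33.5% were called (16.7% lower). Beside these shares, of 11 hepatocyte marker loci 3 were higher, 3 lower and 5 not called (1 higher and 3 lower with the trend removed). The 9 that could be summed came to 24075 to 29057 FPKM in Jnk1Jnk2 livers, against 17249 to 19369 in Control livers, as deposited. Called one by one, 4 of 8 macrophage markers were higher and 0 lower (2 higher with the trend removed). Of 6 endothelial markers 1 was higher and 2 lower (2 higher and 0 lower with the trend removed), of 7 stellate markers 1 was higher (4 with the trend removed), and of 3 cholangiocyte markers tested 1 was higher and 1 lower. In high fat Jnk2 livers the endothelial sum was 81.2 to 83.1 FPKM and the stellate sum 120.1 to 155.7, against the same Control ranges. Of 5 enterocyte markers, 3 were at 0 in every library. The 5 summed to 1.81 to 3.14 FPKM in high fat Jnk1Jnk2 livers and 1.5 to 3.72 in high fat Jnk2 livers. High fat Control livers had 5.65 to 7.07 FPKM. The 1 enterocyte marker tested was called lower in high fat Jnk1Jnk2 than in high fat Control livers (-1.17, and -0.89 with the trend removed). The part of these cells in the transporter changes was not tested.

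The genes most like the 3 most variable transporters were found by the root mean square difference of 8 group means of log2(FPKM + 1), centred and with the length trend removed, over 10193 loci. Nearest to Abcc2 were Mfsd4 (0.102), Dhtkd1 (0.112) and Prox1 (0.123), the last a hepatocyte transcription factor gene. Nearest to Slco1a1 were Rhod (0.201), Gm4952 (0.216) and Adck5 (0.238). Nearest to Abcb11 were Creld2 (0.166), Mlxipl (0.18), which encodes the glucose-responsive factor ChREBP, and Cpb2 (0.183). The group means of these transporters ranged over 1.45, 1.44 and 1.14 on that scale for Abcc2, Slco1a1 and Abcb11.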

How the data were processed

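Liver RNA was measured in 24 libraries, grouped by their titles, with RNeasy extraction per the labels' protocols. The authors used TopHat, Cufflinks and Cuffdiff on mm10, per the submitters' processing notes, without stated versions. They deposited FPKM per locus, and all value columns matched a labelled sample. Starts were read as counted from 0, since 11033 of 20247 matched loci start 1 base before the RefSeq start. FPKM carry no counts, so no count model and no counting intervals were used.

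Every locus with a mean of at least 1 FPKM entered 1 model of 8 groups with 16 residual degrees of freedom, fitted to log2(FPKM + 1) by limma-trend. The limma version was 3.58.1, under R 4.3.3. P-values were adjusted by Benjamini-Hochberg over 10562 loci within each of 15 contrasts, and called under 0.05. This scale understates changes of low genes. An exact test of 3 libraries against 3 cannot go below p = 0.1 (two-sided). To remove the length trend, the loess fit (span 0.5) of each library's deviation on log2 length was subtracted, using GENCODE vM21 lengths for 96.5% of tested loci. Some library was at 0 for 16 loci, Alb among them, whose median reached 10 FPKM; such loci were left out of marker sums.

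The 10 genes and all lists were chosen with earlier results of these data known. Every transporter is named; from other lists, the 3 largest called changes per contrast were candidates for naming, and those printed, with Nr1h4, Nr1h3, Dbp and Arntl, were picked after their values were seen. Alternatives were another pseudocount (0.1), no filter, size factors (0.907 to 1.087), quantile normalization, array weights, fits of only the groups compared, a replicate block, length and GC corrections, and each library left out. Methods were tested on simulated data. Tables and plots were made in Python 3.11.15 with matplotlib 3.10.9, pandas 2.3.3, scipy 1.17.1 and, for arrays, numpy 2.4.6.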

Additional observations from a re-analysis of the deposited data

Results flagged for a closer look

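Several transporters differed between groups in the size of the same contrast, by an interaction test in the limma fit with Benjamini-Hochberg adjustment. Relative to the diet change of Control livers, that of Jnk1Jnk2 livers differed by -1.32 for Abcb11, -1.84 for Abcc2, -0.42 for Slc10a1 and -0.73 for Slco1b2. That of Jnk2 livers differed by -0.6 for Abcb11 and -0.73 for Slco1b2. The Jnk1Jnk2 change departed from the sum of both single changes by 1.17 for Abcb11 on chow. On high fat it departed by -1.48 for Abcc2, -1.02 for Abcc3 and 1.36 for Slco1a1. With the length trend removed these high fat departures were -1.0, -0.6 and 1.68. All are on the log2(FPKM + 1) scale with 3 libraries per group, and as deposited unless stated.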

How the results depend on the processing

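Of 27 called transporter changes, 15 stayed called in the same direction under every alternative run. Over all alternatives, 498 of 561 values kept the call, 59 lost it and 4 turned. Those that turned were Abcc3 in high fat Jnk1Jnk2 against Control livers, at 0.01 with the length trend removed, 0.01 with the replicate block as well, and 0.06 and 0.03 with the trend removed and Jnk1Jnk2 replicate 1 or 3 left out, an alternative chosen after seeing the data. Removing the length trend kept 25 of the 27.

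Array weights called 2 transporters in chow Jnk1Jnk2 livers (Slc10a1 and Slco1b2), 5 in high fat Jnk1Jnk2 livers, 2 in high fat Jnk1 livers and 5 between diets in Control livers. Across all loci they called 447 in chow Jnk1Jnk2, 466 in chow Jnk2, 716 in high fat Jnk1 and 2824 in high fat Jnk2 livers, against 17, 48, 24 and 1311 without weights. Quantile normalization called 1 in chow Jnk1 and 5 in high fat Jnk1Jnk2 livers, where 51.2% of all loci were already called as deposited. A fit of only the groups compared called 1 in chow Jnk1, 1 in high fat Jnk2, 1 between diets in Jnk2 livers and 1 for the Jnk2 difference in diet change, which was Abcc2 (-0.91, adjusted p = 0.0256) in place of Abcb11 and Slco1b2 (-0.73, adjusted p = 0.0803). Length and GC removal called 1 in high fat Jnk2 livers and 1 for that difference. Replicate block and length removal together called 5 departures from additivity on high fat. Counts printed here without a count over all loci in the same setting were not set against a background. Causes were not tested.

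With each library left out, counts ranged from 1 to 2 for chow Jnk1, high fat Jnk2, the Jnk2 and Control diet changes and the Jnk2 difference in diet change. They ranged from 2 to 3 for high fat Jnk1Jnk2, 3 to 4 for the Jnk1Jnk2 difference in diet change and 3 to 5 for the high fat departure. They stayed at 4 and 2 for the Jnk1Jnk2 and Jnk1 diet changes, 1 for the chow departure and 0 for the others. The replicate numbers were not shown to pair the samples: same-numbered deviations correlated at -0.26 to 0.33 (median -0.02, 84 pairs). The replicate block alone kept 27 of 27 calls. Depth is unknown, a limit for Abcc4, which stayed under 1 FPKM in every library.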
